A study of Mus musculus with 6 samples.

Results

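The muscleblind-like genes Mbnl1, Mbnl2 and Mbnl3 were followed in mouse cortical neuron cultures in which the RNA-binding protein CELF1, formerly CUGBP1, had been lowered. They were measured by every exon probe set whose only gene symbol in the platform's annotation is Mbnl1, Mbnl2 or Mbnl3. These 3 genes were among 22071 genes named by a single symbol. The rule gave 59 probe sets, 27 for Mbnl1, 21 for Mbnl2 and 11 for Mbnl3, of 316997 that carry a single symbol and 1195555 in all.

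Cortical cells came from C57Bl/6 embryos at embryonic day 15 and were treated early in culture with AraC, which removes dividing cells. On day 5 the cultures received lentivirus for 4 hours, with a control short hairpin RNA (control shRNA) or with an shRNA against Cugbp1, and RNA was taken on day 11. Each group had 3 arrays, from 100 ng of total RNA each. All cultures thus shared the lentivirus, the AraC and a medium with BDNF and CNTF, and the groups differed in the shRNA alone, so effects of this hairpin other than on Cugbp1 cannot be told apart from its loss. The labels name neither the share of cells infected nor separate animals behind the replicates, so p-values measure only the spread between these samples, which may be technical. For replicates 2 and 3 of both groups the treatment text names an shRNA against Tdp-43, although titles and genotypes say Cugbp1 or control. The study's design text calls the cells motor neurons, whereas its title and the sample labels call them cortical neurons.

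MBNL proteins are zinc finger proteins that bind RNA and govern alternative splicing, polyadenylation and the localisation of transcripts. In myotonic dystrophy they are trapped by expanded CUG repeats in RNA while CELF1 becomes more abundant, and MBNL and CELF proteins drive many of the same exons in opposite directions. MBNL1 is best known from muscle and MBNL2 from brain, whereas MBNL3 is known from placenta and developing muscle. The Mbnl transcripts are themselves alternatively spliced, and MBNL proteins regulate an exon in their own transcripts.

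Values are log2 RMA values, the output of a standard array normalization. A gene value is the summary per array of those probe sets of the gene whose mean over all 6 arrays reached the median of all probe sets, 5.73. Levels of different genes or probe sets are not compared, because probes differ in how strongly they respond. The medians of the 6 arrays lay between 5.74 and 5.78. The targeted gene, Celf1, was at 10.85, 10.79 and 10.75 in control replicates 1 to 3 and at 9.59, 9.40 and 9.33 in the knockdown arrays, and fell by 1.36 (limma, adjusted p = 0.0124). With single arrays left out its adjusted p was 0.0308 without control replicate 1 and 0.0540 to 0.141 without the others, while the groups stayed far apart. Of 6 pan-neuronal markers 5 were measured, with a mean over the list between 12.6 and 12.8 on every array, and Rbfox3 was not. Of 4 motor neuron markers, Slc18a3 was not measured, and the list mean of the other 3 lay between 6.48 and 6.79. Among the markers of other cell types, Cldn5 and Lum were not measured. List means in control and knockdown arrays were 9.29 to 9.44 and 9.07 to 9.50 for 5 astrocyte, 9.13 to 9.42 and 9.19 to 9.34 for 4 oligodendrocyte lineage, and 6.79 to 7.10 and 6.73 to 7.01 for 4 microglia markers. They were 8.52 to 8.95 and 8.51 to 8.87 for 3 fibroblast and meninges markers, and 7.55 to 8.05 and 7.21 to 7.47 for 2 endothelial and mural markers, of which Pdgfrb fell by 0.80 (limma, adjusted p = 0.0415). None of the 26 measured markers rose, with or without the replicate block described next. With that block, the astrocyte marker Aldh1l1 (-0.21, limma adjusted p = 0.0411) and the microglia marker C1qa (-0.23, limma adjusted p = 0.0362) fell as well as Pdgfrb. The part of other cell types in the results that follow was not tested, and in such bulk RNA fewer cells of a type and less RNA per cell cannot be told apart.

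All 3 Mbnl genes had higher gene values in the cultures given the Cugbp1 shRNA, in each of the 3 replicate numbers. None passed in the fit without a term for the replicate number. Mbnl1 and Mbnl3 passed when that number was added as a block, a fit that removes what the control and knockdown arrays of a number share. As background, limma called 651 of 16524 genes (3.94%; 1.1% higher and 2.84% lower) without the block. With it 3827 genes (23.2%; 9.31% higher and 13.8% lower) were called, so a call in that fit is common, and that count was 0 without the arrays of replicate 2. By direction alone, 4275 genes (25.9%) were higher in 3 of 3 replicate numbers.

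The Mbnl1 gene value rested on 25 probe sets and was 9.85, 10.15 and 9.94 in control replicates 1, 2 and 3. In the knockdown arrays it was 10.20, 10.44 and 10.36 in the same order. The lowest knockdown array thus lay just above the highest control array, and the groups did not overlap, as in 25.2% of all genes (10.8% with the knockdown arrays higher). Mbnl1 was 0.36 higher on the log2 scale (standard error 0.11, limma adjusted p = 0.147), which is 1.28-fold, with a 95% confidence interval of 1.06 to 1.54. With the replicate block the standard error was 0.059 and the adjusted p 0.0107. Leaving out the arrays of 1 replicate number in this blocked fit gave adjusted p values of 0.0434 without replicate 1, 0.0878 without replicate 2 and 0.0692 without replicate 3, with log2 changes of 0.33 to 0.42. Leaving out single arrays without the block gave changes of 0.25 to 0.42 (limma, adjusted p = 0.176 to 0.487).

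Mbnl2 rested on 21 probe sets. Its gene value was 9.96, 10.24 and 10.25 in control replicates 1 to 3 and 10.22, 10.40 and 10.33 in the knockdown arrays. The groups overlapped, since knockdown replicate 1 lay below control replicates 2 and 3. Mbnl2 was 0.17 higher (standard error 0.11, limma adjusted p = 0.495, and 0.101 with the replicate block). The 95% interval of its fold change ran from 0.940 to 1.35. A plain mean of the probe sets in place of the median polish gave 0.32 (limma, adjusted p = 0.116). Leaving out control replicate 1 gave 0.082 and leaving out knockdown replicate 2 gave 0.10.

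Mbnl3 had 6 of its 11 probe sets above the limit. Its gene value was 5.92, 6.61 and 6.35 in control replicates 1 to 3 and 6.45, 6.92 and 6.97 in the knockdown arrays. Here too knockdown replicate 1 lay below control replicate 2, so the groups overlapped. Mbnl3 was 0.48 higher (standard error 0.21, limma adjusted p = 0.270), which is 1.40-fold, with a 95% interval from 0.998 to 1.95. With the replicate block the adjusted p was 0.00965, and leaving out the arrays of 1 replicate number in that fit gave 0.0847 without replicate 1, 0.0768 without replicate 2 and 0.115 without replicate 3, with changes of 0.43, 0.53 and 0.27. Single arrays also moved the change, to 0.28 without control replicate 1 and 0.31 without knockdown replicate 3. With no filter on low probe sets and no block, the change was 0.39 (limma, adjusted p = 0.519).

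**Figure D1:**
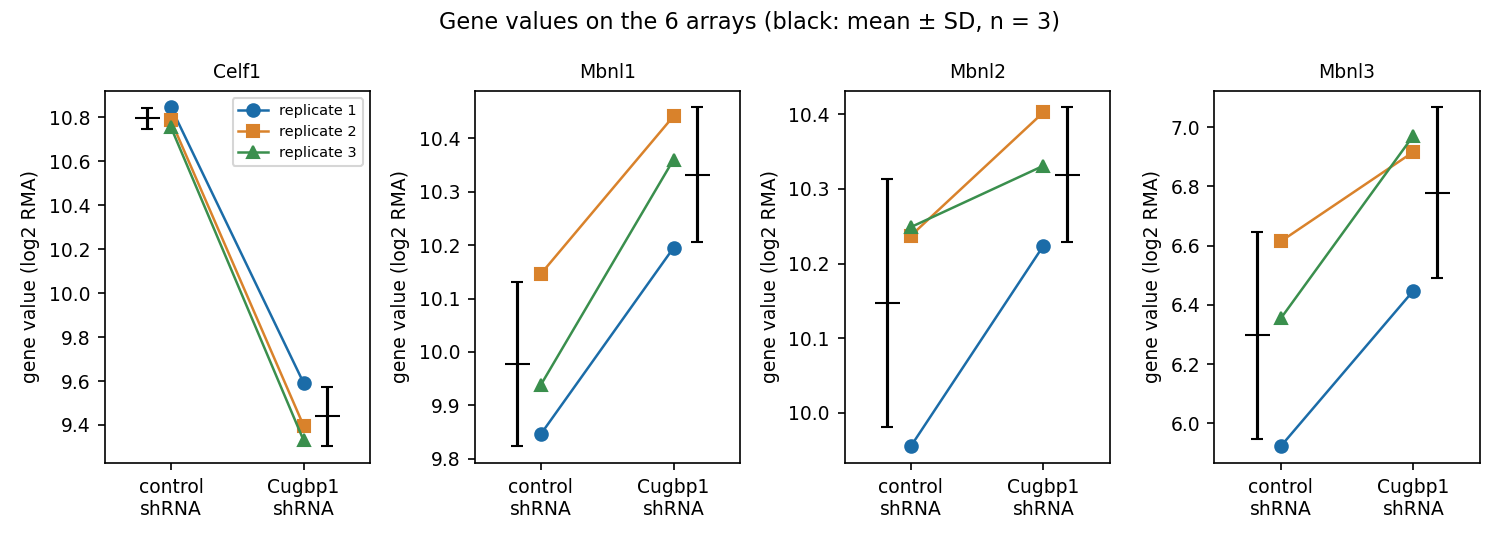
Gene values (log2 RMA, y axis, own scale in each panel) of Celf1, Mbnl1, Mbnl2 and Mbnl3 on the 6 arrays, with a line for each replicate number and the mean ± SD (n = 3) of each group in black. Celf1 goes down and each Mbnl gene goes up along all 3 lines, while replicate 1 (blue) starts lowest for the 3 Mbnl genes.

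Whether the members changed by different amounts was tested on the difference between their gene values within each array, over the 3 pairs of members. The change of Mbnl1 exceeded that of Mbnl2 by 0.18, with 0.080, 0.13 and 0.34 in replicates 1, 2 and 3 (two-sided exact permutation test, p = 0.1, adjusted p = 0.3). With 3 against 3 arrays 0.1 is the smallest p possible. An exact two-sided test that flips signs within the 3 replicate numbers gave p = 0.25, likewise the smallest it can give. The difference was 0.031 with plain means of probe sets, 0.079 without control replicate 3 and 0.29 without the arrays of replicate 2. Mbnl1 changed by 0.13 less than Mbnl3 (exact permutation p = 0.5, adjusted p = 0.5) and Mbnl2 by 0.31 less than Mbnl3 (exact permutation p = 0.2, adjusted p = 0.3). None of the 3 differences passed.

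At the level of single probe sets the higher Mbnl1 values were spread over nearly all probe sets. Of its 25 kept probe sets 24 had a higher mean in knockdown arrays, against 49.4% of all 244606 probe sets of tested genes. They were higher in all 3 replicate numbers in 21 cases, against a background of 23.8%, and higher without overlap of the groups in 8, against 8.11%, and 0 were lower without overlap, against 10.1% (18.2% in either direction). The middle of the distribution was narrow, from 0.27 at the lower to 0.39 at the upper quartile, with a median of 0.34. Probe sets of a gene share their RNA and are not independent. An example is probe set 4331125, which was at 11.63, 11.74 and 11.82 in control replicates 1 to 3 and at 11.96, 12.13 and 12.11 in knockdown arrays.

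Probe set 5562275 had the largest change of the kept Mbnl1 probe sets. It was at 6.62, 6.93 and 7.22 in control replicates 1, 2 and 3 and at 7.69, 8.32 and 8.11 in the knockdown arrays, with no overlap of the groups. Its level changed by 1.12 (2.17-fold, limma adjusted p = 0.486 over all kept probe sets), while the next Mbnl1 probe sets, 4493533 and 4357388, were at 0.60 and 0.56. Probe set 4493533 was at 9.99, 9.98 and 10.12 in control and 10.61, 10.72 and 10.55 in knockdown arrays, likewise without overlap.

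The 21 kept Mbnl2 probe sets did not all change alike. A set of 7 changed by 0.61 to 0.88, all 7 higher in 3 of 3 replicate numbers, and the next largest change among the other 14 was 0.35, with a median of 0.14. The 7 are probe sets 4941815, 5448174, 4834775, 4906671, 4362166, 5555024 and 5033062, and they were singled out after their values were seen, so the split itself has no test. They also differed from the gene value among the control arrays. In all 7 control replicate 1 was the highest control array, whereas among the other 14 it was the lowest in 12 and the highest in 1. Over the 6 arrays the correlation of the 7 with the Mbnl2 gene value ran from r = -0.22 to 0.036. This is a description only, as the same probe sets enter the gene value. Among the other 14 it ran from -0.86, for probe set 5083082, to 0.99, so a low r was not particular to the 7. Mean levels were 6.57 to 9.57 for the 7 and 6.65 to 12.26 for the 14, and are not compared, as probes differ in response.

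Probe set 4941815 had the largest change of Mbnl2. It was at 7.58, 6.79 and 6.91 in control replicates 1 to 3 and at 8.55, 7.88 and 7.48 in knockdown arrays, a change of 0.88 in which knockdown replicate 3 lay below control replicate 1. Probe set 5448174 was at 6.76, 5.58 and 6.15 in control and 7.11, 6.81 and 6.998 in knockdown arrays, without overlap. Probe set 4834775 was at 7.91, 6.96 and 6.98 in control arrays and 8.23, 7.91 and 7.91 in knockdown arrays, where the lowest knockdown value fell just under control replicate 1. The lowest change of Mbnl2 was that of probe set 5083082, at 7.27, 6.81 and 6.39 in control and 6.98, 6.38 and 6.25 in knockdown arrays, down in 3 of 3 replicate numbers with overlapping groups. By contrast probe set 5442630, one of the 14 that moved little, was at 11.93, 12.27 and 12.39 in control and 12.16, 12.34 and 12.50 in knockdown arrays.

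Among the 6 kept Mbnl3 probe sets, 4 had a higher mean and 2 were close to no change. Probe set 4424911 was at 5.77, 6.50 and 6.20 in control replicates 1 to 3 and at 6.59, 7.32 and 7.12 in knockdown arrays. Each knockdown array thus lay above all control arrays, by a mean of 0.86 (1.81-fold, limma adjusted p = 0.692). Probe set 5201417 was at 6.04, 6.56 and 5.54 in control and 6.41, 6.85 and 6.95 in knockdown arrays, with overlap through replicate 1. Probe set 5334398 was at 7.37, 7.78 and 7.63 in control and 7.60, 7.52 and 7.63 in knockdown arrays, a change of -0.013, and probe set 5372667 changed by -0.024. The higher gene value was thus not shared by all its probe sets.

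Over all members 0 of the 52 kept probe sets passed in limma, with or without the replicate block. Across the whole array 0 of 597778 kept probe sets passed in either fit (0%), so this count is that of the background. Without the block 8 of the 52 had an unadjusted limma p under 0.05. The share of all probe sets with such a p is not given here, so the 8 are not read as an excess. At the gene level, which is another unit and no background for the 8, 3105 of 16524 genes had one in the fit without the block. The smallest adjusted p of a member was 0.486, and 0.143 with the block, both for probe set 5562275. The other 7 member probe sets, 2 of Mbnl1 and 5 of Mbnl3, had means of 3.47 to 5.51, under the limit, and were not tested. Of these 6 had a higher mean in the knockdown arrays and 1, probe set 5352067 of Mbnl1, a lower one by 0.11.

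**Figure D2:**
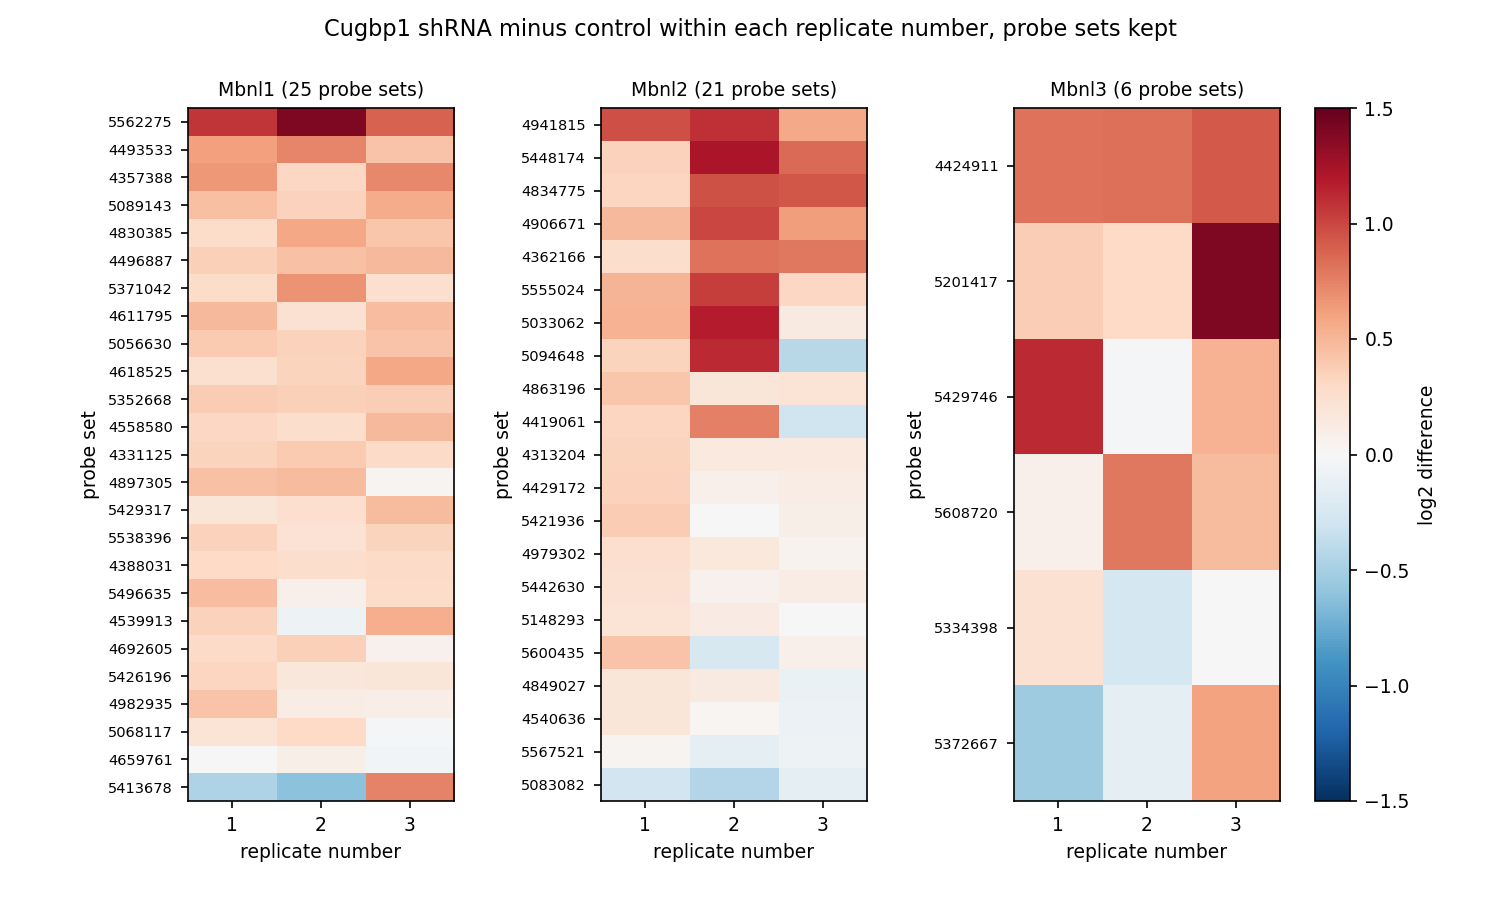
Log2 difference of Cugbp1 shRNA minus control within replicate numbers 1, 2 and 3 (columns) for the kept probe sets (rows, ordered by mean change) of Mbnl1, Mbnl2 and Mbnl3, with higher values in red and lower ones in blue. Most Mbnl1 rows are light red below probe set 5562275, while 5413678 is blue, blue and red. The top 7 Mbnl2 rows are red in all columns, and 5094648 and 4419061 just below them are red in replicates 1 and 2 but blue in 3.

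**Figure D3:**
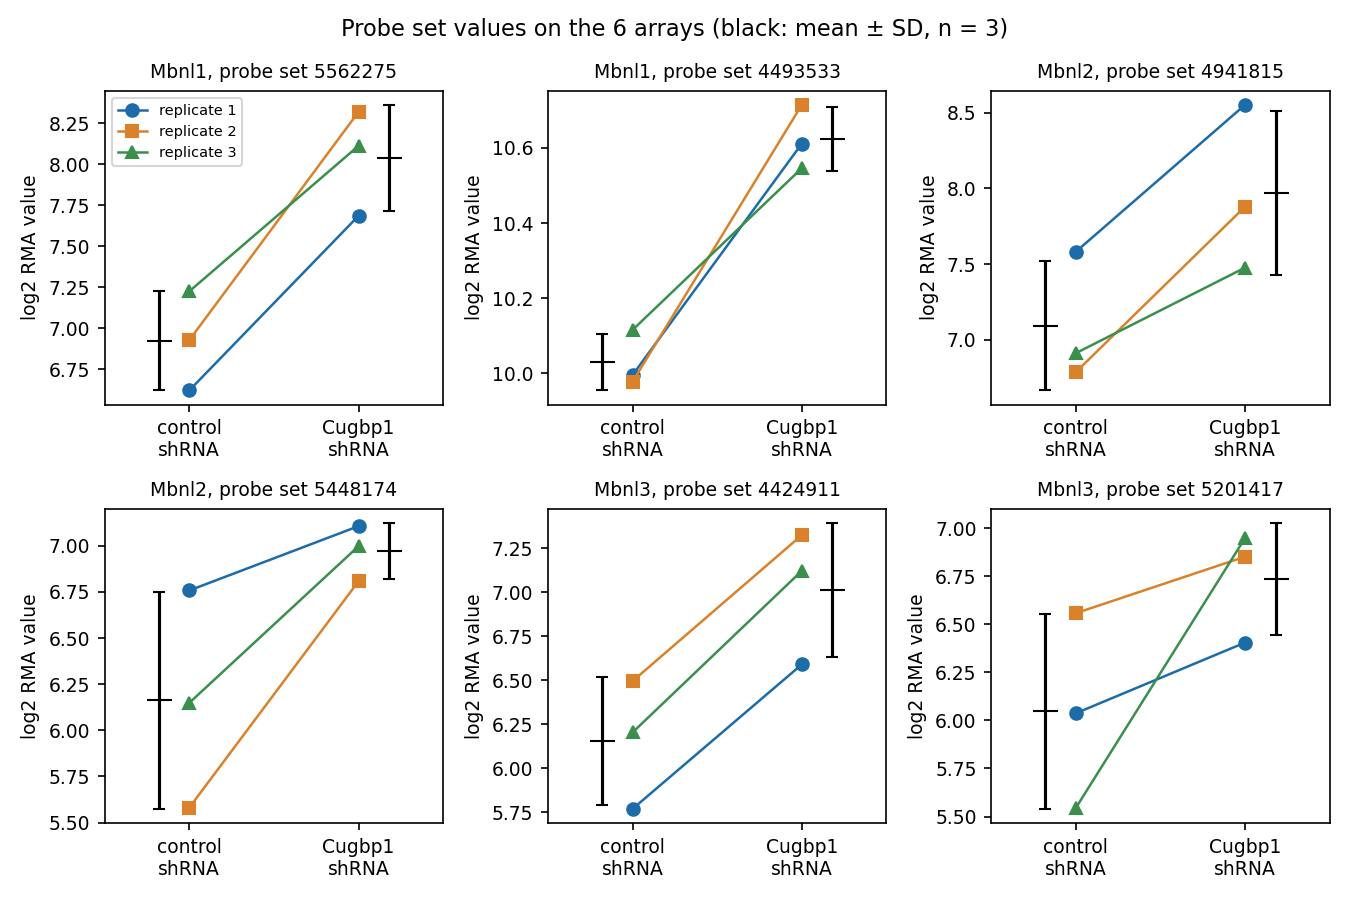
Log2 RMA values (y axis, own scale in each panel) of 2 probe sets each of Mbnl1, Mbnl2 and Mbnl3 on the 6 arrays, with a line for each replicate number and group means ± SD (n = 3) in black. Shown are those with the largest change in each gene, and the groups overlap for Mbnl2 4941815 and Mbnl3 5201417 but not for the other 4.

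Exon usage was compared next, that is, the change of a probe set relative to the rest of its gene, which can reveal a change in splicing, in the transcript start or in its end. No probe set is assigned to an exon, as genomic positions are not analysed here. With diffSplice 0 of the 52 member probe sets passed, against 201 of 244606 probe sets in all (0.0822%, with 0.0442% relatively higher and 0.038% relatively lower). With the replicate block 2 passed, both of Mbnl1, against 5806 (2.37%; 1.19% higher and 1.18% lower), a share of the members near the background. Probe set 5562275 was 0.80 higher relative to the rest of Mbnl1 (standard error 0.25, diffSplice adjusted p = 0.467, and 3.86e-05 with the replicate block). A relative rise as large was seen in 0.268% of all probe sets. It was also called in the blocked fit without replicate 1, without replicate 2 or without replicate 3.

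The other call was probe set 5413678, which was at 6.63, 5.99 and 4.80 in control replicates 1 to 3 and 6.17, 5.37 and 5.54 in knockdown arrays. It was 0.48 lower relative to the rest of Mbnl1 (diffSplice adjusted p = 1, and 0.0277 with the replicate block). Its control arrays spread over more than its change, and replicate 3 went up by 0.74 while replicates 1 and 2 went down by 0.47 and 0.62. In the blocked fit it was not called without replicate 1 or without replicate 2. Its mean over all 6 arrays, 5.752, lay just above the limit of 5.733. The knockdown mean, 5.695, was under that limit, so probe set 5413678 was kept through the control arrays, and its call is a description only.

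DiffSplice shares a variance among the probe sets of a gene, so a noisy probe set can pass too easily. A splicing index, the probe set minus its gene value tested with its own variance, called 0 of 244606 probe sets, with or without the replicate block (0%). By that test Mbnl1 probe set 5562275 did not pass (limma, adjusted p = 1, and 0.297 with the block). Its level minus the gene value was -3.23, -3.22 and -2.71 in control replicates 1 to 3 and -2.51, -2.12 and -2.25 in knockdown arrays, without overlap. Of the Mbnl2 probe sets, 5083082 was 0.64 lower relative to its gene and 4941815 was 0.59 higher (diffSplice adjusted p = 1 for both, and 0.0524 and 0.0865 with the block). In Mbnl3, 4424911 was 0.53 higher and 5334398 was 0.51 lower relative to their gene (diffSplice adjusted p = 1 for both, and 0.454 and 0.477 with the block). None of these 4 passed in either diffSplice fit, nor did Mbnl1 probe set 4659761, whose level changed by 0.017 and which was 0.34 lower relative to its gene (adjusted p = 1, and 0.195 with the block).

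Genes reported to hold exons regulated by MBNL proteins were examined as a list of 40, of which 39 were measured. At the gene level 21 had a higher and 18 a lower mean, 0 rose and 1 fell, with a median change of 0.016 against -0.015 over all genes. The gene that fell was Itga6, an integrin subunit for laminin. It was at 9.69, 10.29 and 9.81 in control replicates 1 to 3 and 8.74, 8.99 and 8.81 in knockdown arrays, a clear gap between the groups and a fall of 1.08 (standard error 0.17, limma adjusted p = 0.0229). With single arrays left out it passed without control replicate 1 and missed the threshold without any of the other 5 arrays.

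With the replicate block 2 genes of the list rose and 8 fell, against 9.31% and 13.8% of all genes. Without the arrays of replicate 1 that fit called 2 of these genes, Clasp1 and Itga6, without replicate 2 it called 0, and without replicate 3 it called Itga6. Those that rose were Clcn1, a muscle chloride channel, at 0.28 (limma adjusted p = 0.275, and 0.0272 with the block), and Limch1, an activator of non-muscle myosin, at 0.22 (limma adjusted p = 0.294, and 0.0489 with the block). Clasp1, a microtubule plus-end protein, was at -0.34 (limma adjusted p = 0.106, and 0.0106 with the block), and Spag9, a scaffold of JNK signalling, at -0.28 (limma adjusted p = 0.127, and 0.0193 with the block). The ryanodine receptor Ryr1, a calcium release channel, was at -0.43 (limma adjusted p = 0.165, and 0.0192 with the block).

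**Figure D4:**
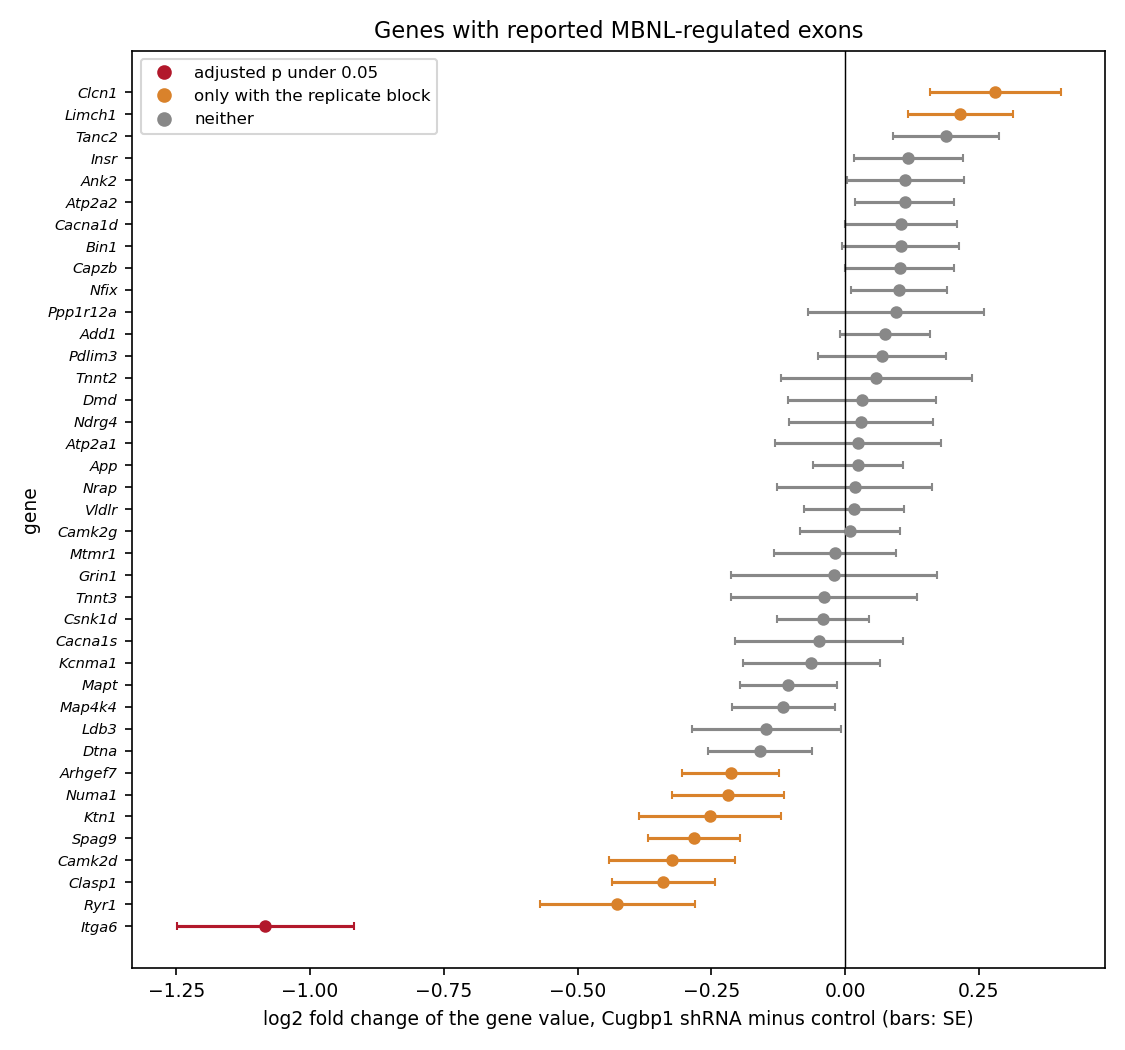
Log2 fold change of the gene value (x axis, bars are SE) for the 39 measured genes with reported MBNL-regulated exons (y axis), Cugbp1 shRNA minus control. Only Itga6, at -1.08, is past an adjusted p of 0.05 without the replicate block (red), and 9 more pass with it (orange).

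Exon usage in these genes gave 2 genes with a call by diffSplice, both of them relative rises, against 176 of all 16524 genes (1.07%). Genes differ in how many probe sets they have. By probe sets the calls were 2 of 1367 (0.146%) against 201 of 244606 (0.0822%), and 2 calls are too few to read as an excess. Probe set 5431105 of Cacna1d, a neuronal L-type calcium channel subunit, was at 7.86, 7.98 and 8.26 in control replicates 1 to 3 and 9.59, 9.96 and 9.78 in knockdown arrays. All knockdown arrays were well above all control arrays, while the Cacna1d gene value changed by 0.10. The relative change was 1.65, which is 3.14-fold (standard error 0.28, diffSplice adjusted p = 0.000175, and 5.13e-20 with the replicate block). Cacna1d was called whichever single array was left out, but not in the unblocked fit without both arrays of replicate 2.

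Probe set 4693877 of Csnk1d, a casein kinase that acts on the circadian clock and on tau, was at 8.75, 8.42 and 8.49 in control and 9.42, 9.74 and 9.28 in knockdown arrays. The groups did not overlap and the gene value changed by -0.041. Its relative change was 0.94 (standard error 0.17, diffSplice adjusted p = 0.00146, and 8.38e-09 with the block). Leaving out replicate 2 of either group ended the call, as did dropping the filter on low probe sets. Probe set 5510623 of Itga6 was at 9.35, 9.32 and 9.47 in control and 9.77, 9.71 and 9.67 in knockdown arrays, so it went up while its gene fell (relative change 1.22, diffSplice adjusted p = 0.0617, and 4.85e-07 with the block). Spag9 probe set 4958482 was at 7.01, 5.10 and 5.08 in control and 7.37, 6.30 and 6.09 in knockdown arrays, with overlapping groups (relative change 1.06, diffSplice adjusted p = 0.120, and 1.18e-07 with the block). Replicate 1 was the highest array of each group for that probe set. Its control mean, 5.731, lay just under the limit of 5.733, so it was kept through the knockdown arrays, where it was higher. The relative rise of the Spag9 probe set is therefore a description only.

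By the splicing index none of these 4 passed (limma, adjusted p = 1 for each, and 0.278 to 0.285 with the block). With the block diffSplice called at least 1 probe set in 26 of the 39 genes, against 21.7% of all genes. Genes with more probe sets have more chances to hold a call, and the list had 1367 probe sets, so this count was not set against the background any further.

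**Figure D5:**
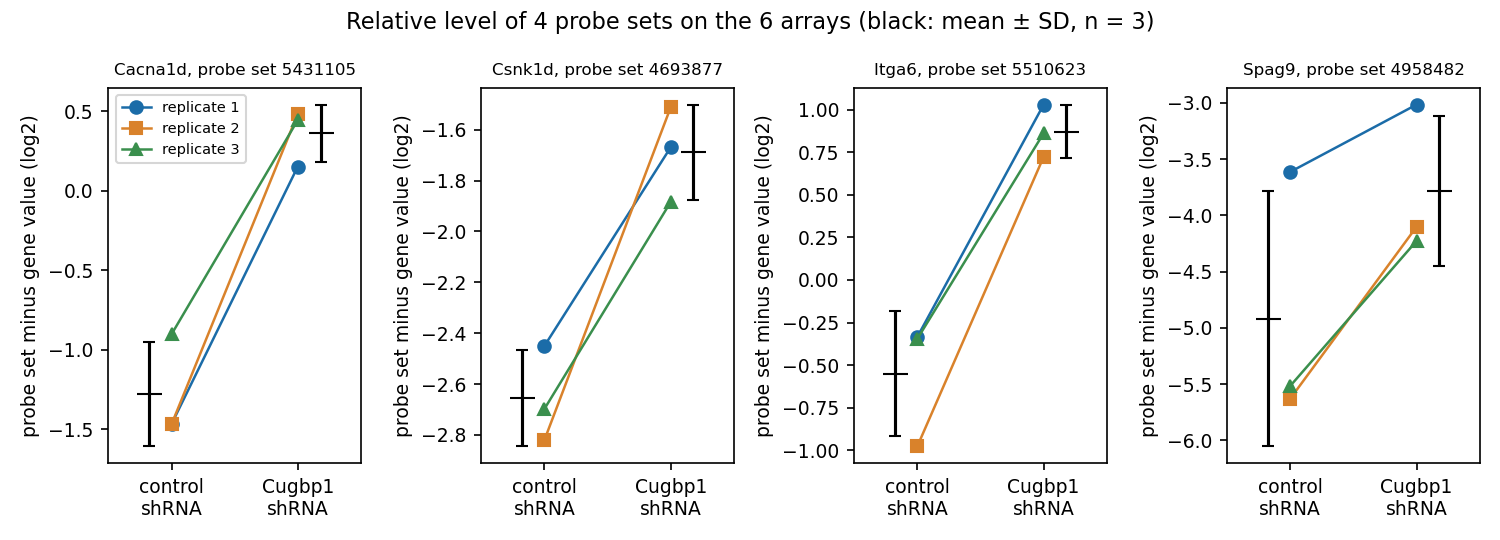
Probe set value minus gene value (log2, y axis, own scale in each panel) on the 6 arrays for the probe sets of Cacna1d, Csnk1d, Itga6 and Spag9 with the smallest diffSplice p in the list, with a line for each replicate number and group means ± SD (n = 3) in black. All 12 lines go up, and the groups overlap for Spag9 alone.

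Of the CELF genes and Dmpk, the gene that carries the repeat in myotonic dystrophy, 7 were measured. Celf1 alone fell without the replicate block. With the block 3 fell, Celf1, Celf5 and Celf6, in a fit where 13.8% of all genes fell. Celf5 was at -0.27 (limma adjusted p = 0.179, and 0.0275 with the block), Celf6 at -0.30 (0.271, and 0.0221 with the block) and Celf2 at 0.20 (0.482, and 0.0769 with the block). Dmpk was at 8.54, 8.45 and 8.36 in control replicates 1 to 3 and 8.73, 8.47 and 8.46 in knockdown arrays. Its groups overlapped and its change was 0.10 (limma adjusted p = 0.728).

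The genes whose values ran most like those of a member over the 6 arrays were found by Pearson's r among 16523 other genes, as a description. For Mbnl1 they were Phf8 (r = 0.998), Dera, Mia3, Homer2 and Upf1, the last at 0.993. For Mbnl2 they were Ppfia2 (r = 0.998), Ndnf, Ssc5d, Paqr8 and Bace2, the last at 0.988, and for Mbnl3 Pank1 (r = 0.995), Tmem64, Cxxc5, Arpc5l and Aurka, the last at 0.992. With 6 arrays high values are common, and 226 genes reached 0.95 with Mbnl1, 135 with Mbnl2 and 176 with Mbnl3. Among the members themselves r was 0.85 for Mbnl1 with Mbnl2, 0.94 for Mbnl1 with Mbnl3 and 0.93 for Mbnl2 with Mbnl3.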

How the data were processed

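RMA in Expression Console produced the deposited log2 values per exon probe set, as the labels state. The only build named in the submitters' processing notes is mm9. RMA equalises arrays before any comparison, and no source used here says which arrays were normalized together. The number of arrays, 3 per group, limits the precision. Gene names came from the platform annotation, with 22264 symbols, of which 4213 were updated through the RefSeq table of assembly GRCm38.p6 (names only).

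Probe sets with a mean of at least 5.73, the median, were kept (597778). Genes with at least 3 single-symbol kept probe sets (16524) were summarised by Tukey median polish. Tests were two-sided with limma 3.58.1 in R 4.3.3 (lmFit, eBayes, diffSplice), Cugbp1 shRNA minus control, adjusted by Benjamini-Hochberg over all features, with calls at 0.05. Scripts were tested on simulated data. Plots used matplotlib 3.10.9.

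Titles number replicates 2 and 3, and replicate 1 was numbered by exclusion. Deviations from group means correlated within numbers at 0.76, 0.50 and 0.72 (across genes), so the numbers pair the arrays, and the replicate block is given where it changes a call. Members and lists were chosen with earlier results of these data known. Named are the members, their 4 probe sets of smallest diffSplice p, up to 4 genes per list at each level, and the 5 genes most like each member. Probe sets 4331125, 4357388, 5442630, the set of 7 of Mbnl2, Dmpk, Clcn1 and Limch1 were chosen after their values were seen. Alternatives covered the block, each array left out, normalization, centring, filter, summary, variance model, array weights, threshold and splicing index. Those leaving out a replicate number were added after seeing the data.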

Additional observations from a re-analysis of the deposited data

How the results depend on the processing

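Direction did not reverse for Celf1, the Mbnl gene values or the difference between Mbnl1 and Mbnl2 under any alternative run. Quantile normalization and median centring changed no call on these values or lists. With the replicate block Mbnl1 (0.36, adjusted p = 0.0107) and Mbnl3 (0.48, adjusted p = 0.00965) passed, 3827 genes in all, 10 genes with MBNL-regulated exons, 2 Mbnl probe sets for exon usage and 26 listed genes with an exon usage call. In blocked fits without replicates 1, 2 and 3 in turn, 2180, 0 and 1374 genes were called, with 2, 0 and 1 of the listed genes, 1, 1 and 2 Mbnl exon usage calls (of 3629, 1921 and 3470 in all) and 23, 17 and 22 listed genes with one (of 2433, 1447 and 2421 in all). In these fits Mbnl1 passed without replicate 1 (0.38, adjusted p = 0.0434), and Celf1 was at -1.32 without replicate 2 (adjusted p = 0.0765). Array weights called Mbnl1 (0.29, adjusted p = 0.0307), 4226 genes, 7 listed genes and 1 Mbnl probe set (of 5789 in all). Trend and robust variances called 1089 genes and 2 listed genes, an adjusted p of 0.10 gave 1348 genes, and a filter at the 75th percentile gave 1039 genes and 4 listed genes with an exon usage call, and no Mbnl3 value, as fewer than 3 probe sets were left. The splicing index gave 0 such genes, and 0 with the block. Leaving out arrays without the block gave Celf1 -1.43 to -1.30, 0 to 677 genes called, 0 to 1 listed genes and 0 to 14 with an exon usage call. In these fits Celf1 passed without control replicate 1 or without both arrays of replicate 1, and missed the threshold in the others (adjusted p = 0.0540 to 0.475). The number of arrays, 3 per group, limits what can be detected.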
